A study of Cercocebus atys with 16 samples.

Results

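Transcripts of 7 genes of the B cell lineage were followed: CD79A, CD79B, CR2, FCER2, MS4A1, PAX5 and CD22. Members were the array probes whose gene name was 1 of these 7 symbols. This gave 5 probes, 2 for CD79B and 1 each for FCER2, MS4A1 and CD22. A further 4 probes, 3 for CR2 and 1 for PAX5, were taken from the probe descriptions of the older annotation edition, because the newer edition names the CR2 probes as a complement receptor type 2-like locus. The 9 probes represent 6 of the 7 genes among 43603 distinct probes, and no CD79A probe was found under its name. Probes for the same gene share a transcript and are not independent of each other.

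The samples were double-negative T cells from the blood of 4 sooty mangabeys (Cercocebus atys), all infected with SIV, whose CD4 status was labelled as normal for 2 (FNV, FKN) and low for the other 2 (FBR, FTV). Cells were prepared with magnetic beads by removing CD4, CD8 and CD16 cells and then selecting for CD3, with a purity above 98% per the labels, and were kept overnight before use. RNA was compared between resting cells and cells given 4 hours of anti-CD3 and anti-CD28, labelled as 3 and 1 mg/ml, which engage the T cell receptor complex and its costimulator. Of the 4 arrays of an animal, 2 compared the conditions directly in opposite dye orientations and 2 carried a single RNA in both channels. The array was designed on the rhesus macaque, so sequence differences between the species can weaken a probe's binding. Nothing in the labels says that an animal gave more than a single preparation of each condition, so animals were the replicates.

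B cells recognise antigen through a surface immunoglobulin that signals by way of the paired chains CD79A and CD79B. The receptor is tuned by a coreceptor that includes the complement receptor CR2 (CD21) and by the inhibitory lectin CD22. MS4A1 encodes CD20, a membrane protein of B cells, and CR2 is also made by follicular dendritic cells and some T cells. FCER2 (CD23) is the low-affinity receptor for IgE and also binds CR2, and PAX5 is the transcription factor that maintains B cell identity. Cells selected for CD3 are not expected to be rich in these transcripts, so their level was set against CD3E, a chain of the T cell receptor complex, in every animal.

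The genome position of each member probe is given here, with sequence features of some probes. CD79B probe 1 (A_01_P015920) lies at chr16:59484184-59484243 and probe 2 (A_01_P1710306) at chr16:59484446-59484505, both on the minus strand of rheMac2, the build that the files name. Probe 1 holds the hexamer AATAAA, the usual polyadenylation signal, starting at its base 38. Its bases 26 to 55 are shown with the hexamer in capitals, because this is the member probe with the largest mean fall over the 4 animals.
CD79B probe 1: cttcccccgtggAATAAAcagtgtgtcctg
The hexamer occurs on the forward strand of 8.1% of all probes and on either strand of 11.3%, and the other 8 member probes hold it on neither strand. The 3 CR2 probes lie in order on the minus strand of chromosome 1: probe 1 (A_01_P008715) at chr1:162868253-162868312, probe 2 (A_01_P1776091) at chr1:162872888-162872947 and probe 3 (A_01_P1769366) at chr1:162883492-162883563. Probe 2 has a forward reading frame that closes with a stop codon at its last base, shown in capitals. Probe 3 is 60 bases long but maps over 72 bases of the genome. FCER2 (A_01_P1825251, chr19:7653844-7653903, minus strand) was the member whose transcript rose. The last pair is shown in lower case, since no position in it is singled out.
CR2 probe 2: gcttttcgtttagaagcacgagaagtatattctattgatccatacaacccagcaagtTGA
CR2 probe 3: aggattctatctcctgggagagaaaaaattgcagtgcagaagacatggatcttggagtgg
FCER2: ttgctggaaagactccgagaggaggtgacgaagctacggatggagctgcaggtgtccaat
The MS4A1 probe (A_01_P1679396) lies at chr14:13596622-13596681 on the minus strand. PAX5 (A_01_P1722716) is measured at chr15:40467211-40467270 and CD22 (A_01_P1673511) at chr19:41850929-41850988, both on the plus strand. Exon and UTR boundaries of this build were not used here.

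FNV stood apart from the other 3 animals before any response was considered. Its array files carry the older annotation edition and those of the other animals the newer. The share of spots well above background in a channel was 33.3% to 64.8% on its 4 arrays, against 57% to 65% on the 12 arrays of the other animals. All 9 measured T cell markers had their lowest resting level in FNV, with a list mean of 9.99 (log2 intensity after normalisation) against 11.08 to 11.21 in the other 3. By contrast, 9 of 10 monocyte markers were highest there (list mean 11.11 against 8.43 to 9.10), as were 4 of 4 dendritic cell markers (9.77 against 7.15 to 7.59). Of all tested probes, 40.6% had their highest resting level in FNV, and the share with the lowest was not computed. Log2 of the summed resting level was 16.75 in FNV and 12.50 to 13.51 in the others for the monocyte list, and 15.69 against 16.41 to 16.44 for the T cell list. The CD4 probe was well above background in 16 of 16 unstimulated channels, at 9.46 in FNV, 9.21 in FKN, 9.53 in FBR and 9.23 in FTV, although the cells were labelled CD4-. The part of these differences in the results below was not tested, and values without FNV are given for the members' responses, their mean level against CD3E and the list counts. In bulk RNA, fewer cells of a type and less RNA per cell cannot be told apart.

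**Figure D1:**
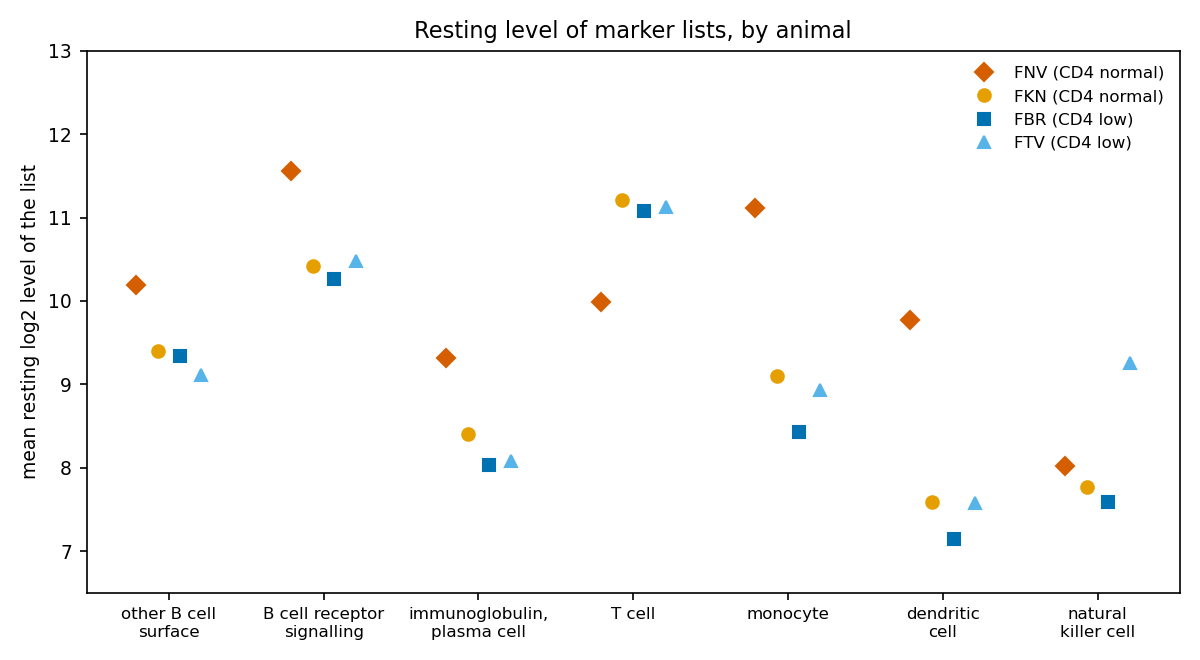
Mean resting log2 level of 7 marker lists, 1 point for each animal; levels are to be compared between animals within a list. FNV has the highest mean for the B cell, immunoglobulin, monocyte and dendritic cell lists and the lowest for the T cell list (9.99 against 11.08 to 11.21).

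At rest, most member probes were above background in these CD3-selected cells, some of them at low levels. Both CD79B probes, all 3 CR2 probes, FCER2 and MS4A1 were well above background in 16 of 16 unstimulated channels. CD3E, the reference, had a resting level of 12.15 in FNV, 13.32 in FKN, 13.20 in FBR and 13.35 in FTV. Array levels of different probes are not on a common scale, so a member's level minus that of CD3E serves only to set animals side by side for the same probe. PAX5 was above background in 4 of 16 unstimulated channels, 3 of them in FNV, and CD22 in 4 of 16, none of them in FNV.

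CD79B probe 1 was the member probe that differed most between animals. Its resting level minus CD3E was 1.30 in FNV, -1.93 in FKN, -2.44 in FBR and -2.85 in FTV. For probe 2 the difference was -2.15 in FNV, -4.71 in FKN, -5.10 in FBR and -5.41 in FTV. The order of the animals was the same for both probes. On this scale FNV exceeded FTV 17.8-fold by probe 1 and 9.60-fold by probe 2. These folds include the difference in CD3E itself, at 12.15 in FNV and 13.35 in FTV. Unscaled, probe 1 read 13.45 in FNV and 10.49 in FTV, and probe 2 read 10.002 in FNV and 7.94 in FTV.

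CR2 followed the same order with a smaller spread. Probe 1 minus CD3E was -0.03 in FNV, -1.64 in FKN, -1.95 in FBR and -2.57 in FTV, so FNV exceeded FTV 5.82-fold. For probes 2 and 3 the ratio of FNV over FTV was 3.42 and 2.37. Without division by CD3E, FNV was not the highest animal for these 2 probes. Resting probe 2 read 8.14 in FNV, 8.18 in FKN and 7.56 in FTV, and probe 3 read 6.90 in FNV, 7.17 in FKN and 6.85 in FTV.

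MS4A1 minus CD3E was -1.96 in FNV, -4.77 in FKN, -4.70 in FBR and -5.26 in FTV, with FNV 9.84-fold over FTV on this scale. Unscaled, MS4A1 read 10.19 in FNV and 8.09 in FTV. FKN and FBR were close to each other, whereas FNV was clear of the rest. FCER2 minus CD3E was -4.75 in FNV, -6.54 in FKN, -6.05 in FBR and -6.74 in FTV, the only measured member besides MS4A1 for which FBR exceeded FKN. The CD3E-scaled level was highest in FNV and lowest in FTV for 9 of 9 member probes, PAX5 and CD22 included. Without FNV the mean over 3 animals was -2.41 for CD79B probe 1, -2.05 for CR2 probe 1, -4.91 for MS4A1 and -6.44 for FCER2, against -1.48, -1.55, -4.17 and -6.02 over 4. On this scale 88.8% of all tested probes were highest in FNV, where CD3E itself was lowest. CD3E was highest in FTV, so the scale also lowers FTV against the other animals. The share of all tested probes lowest in FTV on this scale was not computed. Unscaled, CD22 stayed near background at 6.51 in FNV, 6.64 in FKN, 6.58 in FBR and 6.51 in FTV. On the level alone, 5 of the 7 measured member probes were highest in FNV, against 40.6% of all tested probes, and 7 of 7 were lowest in FTV, against 29.3%. The resting level in FNV lay more than 1 log2 unit above the mean of the other 3 animals for 3 of the 7 (both CD79B probes and MS4A1), against 7.58% of tested probes.

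**Figure D2:**
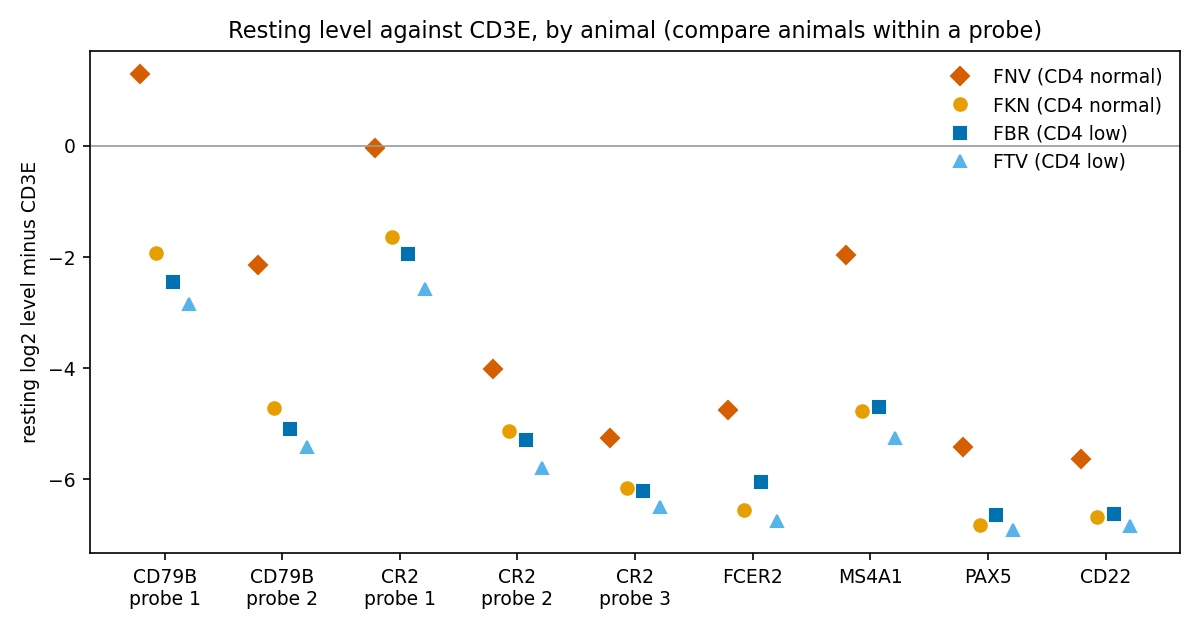
Resting log2 level of each member probe minus that of CD3E, 1 point for each animal; animals are to be compared within a probe. FNV is the top point for all 9 probes, from 1.30 for CD79B probe 1 to -5.64 for CD22, and FTV the lowest. CD3E itself was lowest in FNV and highest in FTV.

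FNV stayed highest and FTV lowest for 9 of 9 probes when CD3G, or the mean of CD3D, CD3E and CD3G, replaced CD3E. CD3D and CD3G, like CD3E, had their lowest resting level in FNV, so each of these references raises FNV against the other animals. The share of all tested probes highest in FNV was not computed for them. FKN and FBR changed places for some probes: MS4A1 minus CD3G was -3.04 in FKN and -3.37 in FBR. With CD3D as the reference, FNV was again highest for 9 of 9 probes, but FTV was lowest for 3 of 9. By that reference CD79B probe 1 read -0.55 in FNV, -3.54 in FKN, -4.23 in FBR and -4.14 in FTV. CD3D itself rose after stimulation, by 0.89 ± 0.33 (SD, n = 4; limma adjusted p = 0.00583), whereas CD3E read -0.20 ± 0.12 (limma adjusted p = 0.0592) and did not pass.

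After stimulation, CD79B, CR2 and MS4A1 fell in every animal and FCER2 rose in every animal. A probe was tested where it was above background in at least 2 animals, and 7 of the 9 member probes entered the test. Of these 7, 6 fell and 1 rose at an adjusted p under 0.05 (limma, 27493 probes). The response to 4 hours of stimulation was broad: 40.3% of all tested probes passed, 20.4% lower and 19.9% higher, with a median log2 ratio of -0.01. The 6 probes that fell represent 3 genes, and CR2 probe 3 among them entered the test only through its unstimulated channels. No test of the members as a set was made.

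CD79B had the largest fall over the 4 animals, although CR2 probe 1 fell further once FNV was left out (-3.06 against -2.41). CD79B probe 1 had a level of 13.45 in unstimulated cells of FNV, 11.39 in FKN, 10.76 in FBR and 10.49 in FTV, and of 10.12, 8.58, 8.36 and 8.17 after stimulation in the same order. Every stimulated level lay below every unstimulated level. The log2 ratio of stimulated over unstimulated was -3.18 in FNV, -2.66 in FKN, -2.30 in FBR and -2.28 in FTV, a mean of -2.60 ± 0.42 (SD, n = 4; limma adjusted p = 0.000669), or 6.08-fold lower. Only 24 tested probes had a lower mean ratio, as this probe ranked 25 from the bottom.

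Probe 2 of CD79B fell in the same animals in the same order. Its unstimulated level was 10.002 in FNV, 8.61 in FKN, 8.10 in FBR and 7.94 in FTV, and its stimulated level 7.30, 6.96, 6.75 and 6.71. The groups did not overlap. The log2 ratio was -2.13 in FNV, -1.62 in FKN, -1.40 in FBR and -1.22 in FTV, a mean of -1.59 ± 0.40 (SD, n = 4; limma adjusted p = 0.00162). Probe 1 gave a lower ratio than probe 2 in 4 of 4 animals, by 1.01 ± 0.07 (SD), while the direction was the same. With the ratio of the scanner software the means were -2.81 and -2.53, so the gap between the probes depended on the processing. On the stimulated same-RNA array of FNV, probe 2 read 6.65, against 7.96 on that animal's ratio arrays, and this was the least even of its levels (SD 0.76 over 4 channels). Without FNV the mean ratio was -2.41 ± 0.21 for probe 1 and -1.41 ± 0.20 for probe 2 (SD, n = 3; limma adjusted p = 0.000678 and 0.000937).

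**Figure D3:**
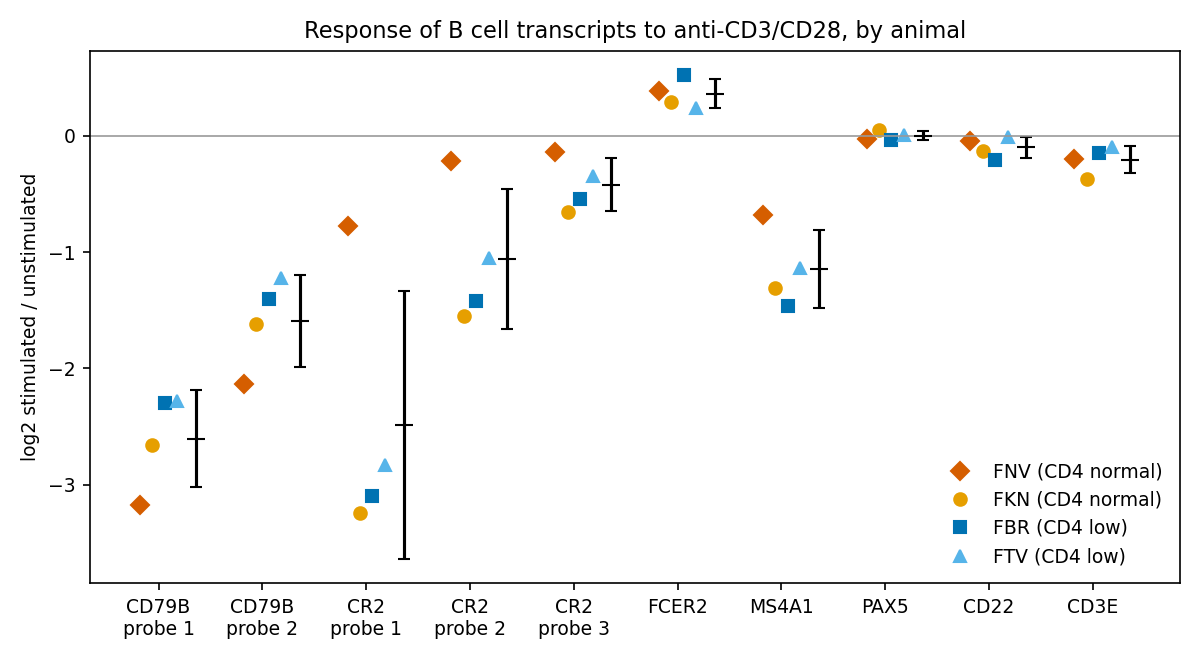
Log2 ratio of stimulated over unstimulated RNA for the 9 member probes and CD3E, 1 point for each animal (mean of its 2 dye orientations), with the mean and SD of 4 animals in black. CD79B, CR2 and MS4A1 lie below 0 in all 4 animals and FCER2 above 0; FNV lies apart from the other animals for CR2 probe 1 (-0.77 against -3.24 to -2.84).

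CR2 fell strongly in FKN, FBR and FTV and little in FNV. Probe 1 was at 12.12 in unstimulated cells of FNV, 11.68 in FKN, 11.25 in FBR and 10.77 in FTV. After stimulation it read 11.25 in FNV, 8.56 in FKN, 8.33 in FBR and 8.03 in FTV. The stimulated level of FNV therefore lay inside the unstimulated range, and the groups overlapped through that animal alone. The log2 ratio was -0.77 in FNV, -3.24 in FKN, -3.09 in FBR and -2.84 in FTV, a mean of -2.49 ± 1.15 (SD, n = 4; limma adjusted p = 0.00949). The small fall in FNV appeared in both dye orientations, at -0.65 and -0.89. Without FNV the mean was -3.06 ± 0.21 (SD, n = 3; limma adjusted p = 0.000678), 8.32-fold lower, compared with 5.60-fold over 4 animals.

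The other CR2 probes were dimmer and changed less, by an amount that depended on the processing. With the ratio of the scanner software the means of probes 1, 2 and 3 were -2.68, -2.13 and -1.68, closer to each other than here. Probe 2 read 8.14, 8.18, 7.91 and 7.56 in unstimulated FNV, FKN, FBR and FTV, and 8.03, 6.80, 6.63 and 6.66 after stimulation. Again FNV changed less than the other 3 animals. Its log2 ratio was -0.22 in FNV, -1.55 in FKN, -1.42 in FBR and -1.05 in FTV (mean -1.06 ± 0.60, SD, n = 4; limma adjusted p = 0.0187), and without FNV the mean was -1.34 ± 0.26 (n = 3; limma adjusted p = 0.00144). Probe 3 gave -0.13 in FNV, -0.65 in FKN, -0.55 in FBR and -0.34 in FTV, a mean of -0.42 ± 0.23 (limma adjusted p = 0.0236), or -0.51 ± 0.16 without FNV (n = 3). It was above background in 16 of 16 unstimulated and 3 of 16 stimulated channels, so its stimulated level, 6.52 to 6.60 over the animals, is close to background and the fall may be understated. Its unstimulated levels were 6.85 to 7.17, and the groups did not overlap. All 3 probes ranked FNV as the animal with the smallest fall and FKN as the one with the largest. Among all tested probes, 44.3% had their smallest change in size in FNV, as did 4 of the 7 tested member probes. The calls for probes 2 and 3 were less secure than that for probe 1: with FKN, FBR or FTV left out, limma's adjusted p was 0.0758, 0.0829 and 0.0657 for probe 2, and 0.0934, 0.103 and 0.0669 for probe 3.

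MS4A1 fell in all 4 animals, least in FNV. Its unstimulated level was 10.19 in FNV, 8.54 in FKN, 8.49 in FBR and 8.09 in FTV, and its stimulated level 9.47, 7.39, 7.16 and 7.03. Within each animal the stimulated level was lower, but FNV after stimulation was higher than the other 3 animals before it. The log2 ratio was -0.68 in FNV, -1.31 in FKN, -1.46 in FBR and -1.14 in FTV, a mean of -1.15 ± 0.34 (SD, n = 4; limma adjusted p = 0.00277), 2.21-fold lower. Without FNV it was -1.30 ± 0.16 (n = 3; limma adjusted p = 0.000877).

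FCER2 went the other way. Its level rose from 7.40 to 7.87 in FNV, from 6.77 to 7.12 in FKN, from 7.15 to 7.66 in FBR and from 6.60 to 6.85 in FTV. Every animal rose, by less than the animals differed from each other, so the groups overlapped. The log2 ratio was 0.39 in FNV, 0.29 in FKN, 0.52 in FBR and 0.24 in FTV, a mean of 0.36 ± 0.13 (SD, n = 4; limma adjusted p = 0.0118), 1.28-fold higher. Without FNV it was 0.35 ± 0.15 (n = 3; limma adjusted p = 0.0193), without FBR limma's adjusted p was 0.0547, and with median centring in place of loess the ratio was 0.29 at a limma adjusted p of 0.0947. With the ratio of the scanner software the mean was 0.96. FCER2 was dim at rest, at 6.60 to 7.40, although above background in 16 of 16 unstimulated and 15 of 16 stimulated channels.

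Both CD79B probes were lower in all 4 stimulated than in all 4 unstimulated samples, as were 8.44% of tested probes. CR2 probe 3 was too, but it passed the filter only through the condition in which it was high. PAX5, whose ratios ran from -0.03 to 0.05, and CD22, from -0.21 to -0.01, stayed near background and were not tested. PAX5 was above background in 1 of 16 stimulated channels and CD22 in 0 of 16. Exchanging the dyes moved a member's ratio in an animal by at most 0.51, with a median of 0.17 over 28 pairs of arrays.

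**Figure D4:**
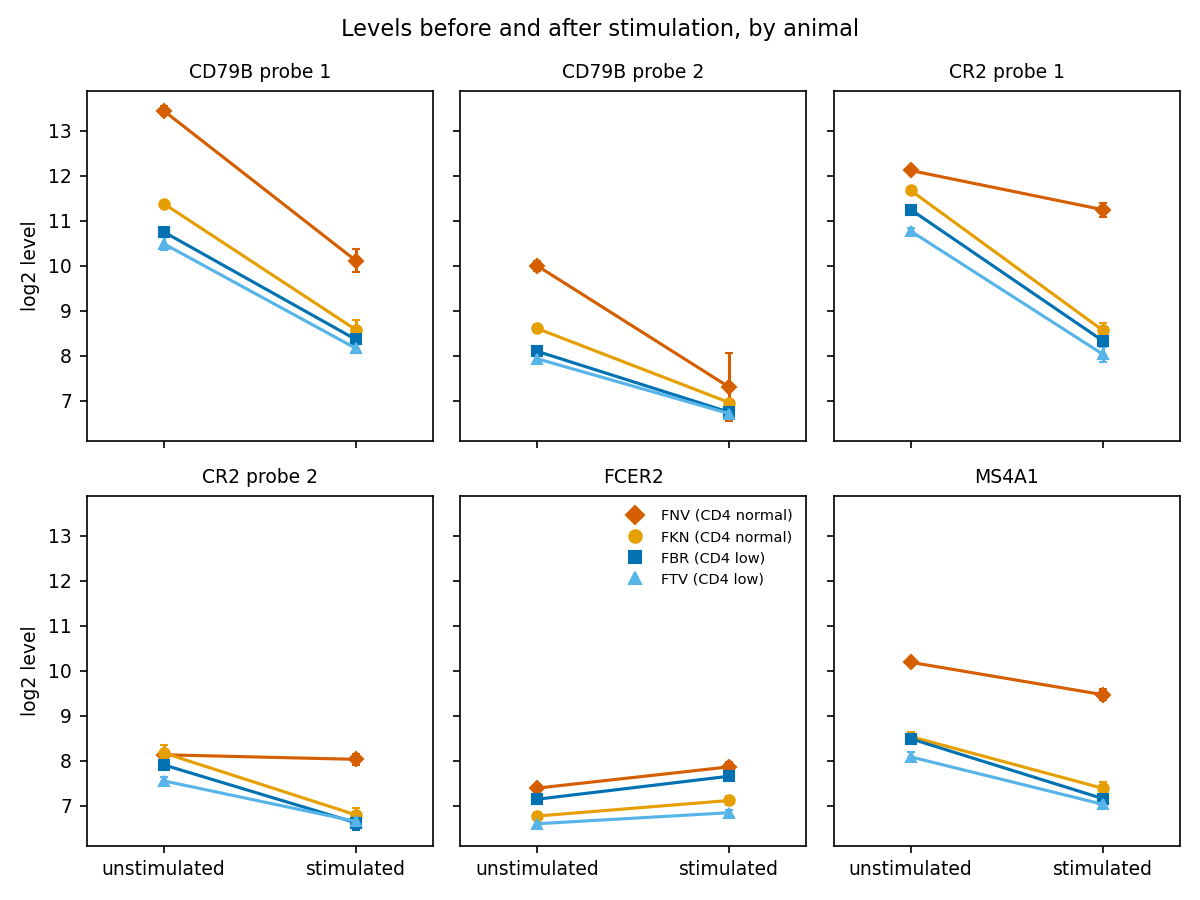
Normalised log2 level of 6 member probes in unstimulated and stimulated cells, a line for each animal with bars of 1 SD over its 4 channels. CD79B falls in all 4 animals, whereas CR2 probe 1 in FNV stays at 11.25 while the other 3 animals reach 8.03 to 8.56.

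The authors' deposited table, which gives 1 log2 ratio per transcript accession and animal, had the same signs for CD79B, CR2, MS4A1 and FCER2, with larger mean sizes for FCER2, MS4A1 and the dimmer CD79B and CR2 probes. For the accession of CD79B probe 1 the authors' deposited table gave -2.72 in FNV, where it covers both probes, -2.76 in FKN, -2.49 in FBR and -2.49 in FTV. For the accession that holds CR2 probes 1 and 2, the authors' deposited table gave -0.28 in FNV, -3.40 in FKN, -3.32 in FBR and -3.12 in FTV, again smallest in FNV. CR2 probe 3 read -0.32, -2.23, -2.65 and -1.30 in the authors' deposited table. FCER2 read 0.82, 0.73, 0.86 and 1.08 and MS4A1 -0.65, -1.78, -2.12 and -1.82 in the same order of animals in the authors' deposited table.

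CD4 status was compared as low (FBR, FTV) minus normal (FNV, FKN), 2 animals against 2, and no member passed. For CD79B probe 1 the resting level was 10.63 in low and 12.42 in normal animals, a difference of -1.79 (limma adjusted p = 0.834), and its response differed by 0.63 (limma adjusted p = 1). The resting difference was -0.89 for CR2 probe 1 and -1.08 for MS4A1, each at a limma adjusted p of 0.834. Resting CD79B and CR2 probe 1 were lower in both low animals than in both normal animals, yet FKN lay nearer to FBR than to FNV for both CD79B probes. Across the array, 0% of tested probes passed for the response, 0% for the resting level and 0% for the stimulated level, with 594, 453 and 571 of 27493 below an unadjusted p of 0.05. Each animal had its own slide, so status, animal and slide cannot be told apart. Without FNV, 0 probes passed for the response, the resting level and the stimulated level.

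Other genes of the B cell surface and lineage changed in both directions. Of 27 listed genes, 11 were measured by their brightest probe: 3 fell, 2 rose and 6 did not pass, with a median log2 ratio of -0.11 (-0.02 without FNV). Over all tested probes, as given above, 40.3% passed and 20.4% fell. CD180, a toll-like receptor relative on B cells, fell by 1.01 ± 0.26 on the log2 scale, the tetraspanin CD37 by 0.66 ± 0.07 and the Fc receptor-like protein FCRL2 by 0.45 ± 0.19 (SD, n = 4; limma adjusted p = 0.00209, 0.00111 and 0.0118). FCRL2 was above background in 15 of 16 unstimulated and 2 of 16 stimulated channels, so it entered the test only through the condition in which it was high. CD83, a surface protein of activated lymphocytes and dendritic cells, rose by 1.35 ± 0.21 and the transcription repressor BACH2, which T cells also express, by 0.68 ± 0.44 (limma adjusted p = 0.000759 and 0.0285). BANK1, a B cell scaffold protein chosen for mention after its values were seen, had a resting level of 10.78 in FNV and 7.58 to 8.31 in the others, and a ratio of 0.11 ± 0.25 (limma adjusted p = 0.459).

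Signalling genes downstream of the B cell receptor gave 4 that fell, 1 that rose and 7 that did not pass among 12 measured, with a median of -0.33 (-0.14 without FNV), beside the same 40.3% of all tested probes that passed. BLNK, the adaptor that links the kinase SYK to its targets, fell by 1.12 ± 0.10, SYK by 0.98 ± 0.39 and the kinase PRKCB by 0.97 ± 0.14 (SD, n = 4; limma adjusted p = 0.000589, 0.00682 and 0.000865). Monocytes also express SYK and PRKCB. DAPP1, an adaptor that binds phosphoinositides, rose by 0.30 ± 0.12 (limma adjusted p = 0.0205). At rest 10 of these 12 genes were highest in FNV, against 40.6% of all tested probes.

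Immunoglobulin and plasma cell genes were measured for 8 of 16 listed: 3 fell, 2 rose and 3 did not pass, with a median of -0.07 (-0.03 without FNV). Of all tested probes, 20.4% fell and 19.9% rose. The brightest IGHG1 probe, an immunoglobulin heavy chain, fell by 1.73 ± 0.26 (SD, n = 4; limma adjusted p = 0.000658), while its other 4 probes read -0.60 to -0.24, and immunoglobulin genes are a family whose near-identical copies a probe may not separate. Resting IGHG1 was 13.44 in FNV, 11.41 in FKN, 10.02 in FBR and 9.69 in FTV, the order seen for CD79B. The plasma cell receptor TNFRSF17 fell by 0.62 ± 0.44 and the light chain IGKC by 0.29 ± 0.09 (limma adjusted p = 0.0369 and 0.0156). TNFRSF17 was above background in 16 of 16 unstimulated but 2 of 16 stimulated channels, so it too entered only through the unstimulated condition. PRDM1 and IRF4, transcription factors of plasma cells that activated T cells also express, rose by 2.49 ± 0.61 and 2.06 ± 0.33 (limma adjusted p = 0.00145 and 0.000704), and a second IRF4 probe read -0.15.

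Without FNV the first list gave the same counts (3 fell, 2 rose), the signalling list 4 and 2, and the immunoglobulin list 3 and 2, while 51.2% of all tested probes then passed. Beside the members, 4 of 10 monocyte markers fell (median -0.83, or -0.48 without FNV), led by VCAN at -1.14 ± 0.53, S100A8 at -0.97 ± 0.20 and CD14 at -0.87 ± 0.48 (SD, n = 4; limma adjusted p = 0.0103, 0.00132 and 0.0183), and none rose. The other 2 VCAN probes read -0.52 and -0.50. Over 4 animals, 20.4% of all tested probes fell and 19.9% rose. Of the 4 measured dendritic cell markers 0 passed by limma over 4 animals, while without FNV LILRA4 fell by 0.52 on the log2 scale and FCER1A rose by 0.32 (limma adjusted p = 0.00468 and 0.0291). The other LILRA4 probes read -0.55 and 0.02 over 4 animals. Among 9 T cell markers, 4 rose and 3 fell, among 6 natural killer cell markers 1 rose and 1 fell, and of 8 platelet and red cell markers 1 fell. The T cell markers that fell were CD5 at -1.004 ± 0.51, LCK at -0.66 ± 0.29 and CD247 at -0.35 ± 0.11 (SD, n = 4; limma adjusted p = 0.0133, 0.0103 and 0.0103). Without FNV, CD5 read -1.25 (limma adjusted p = 0.000772). The fall of CD5 was thus similar in size to those of CD180 and S100A8. Without FNV, 2 T cell markers rose and 3 fell, and 3 platelet and red cell markers fell. The part of these changes in the falls of the members was not tested.

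**Figure D5:**
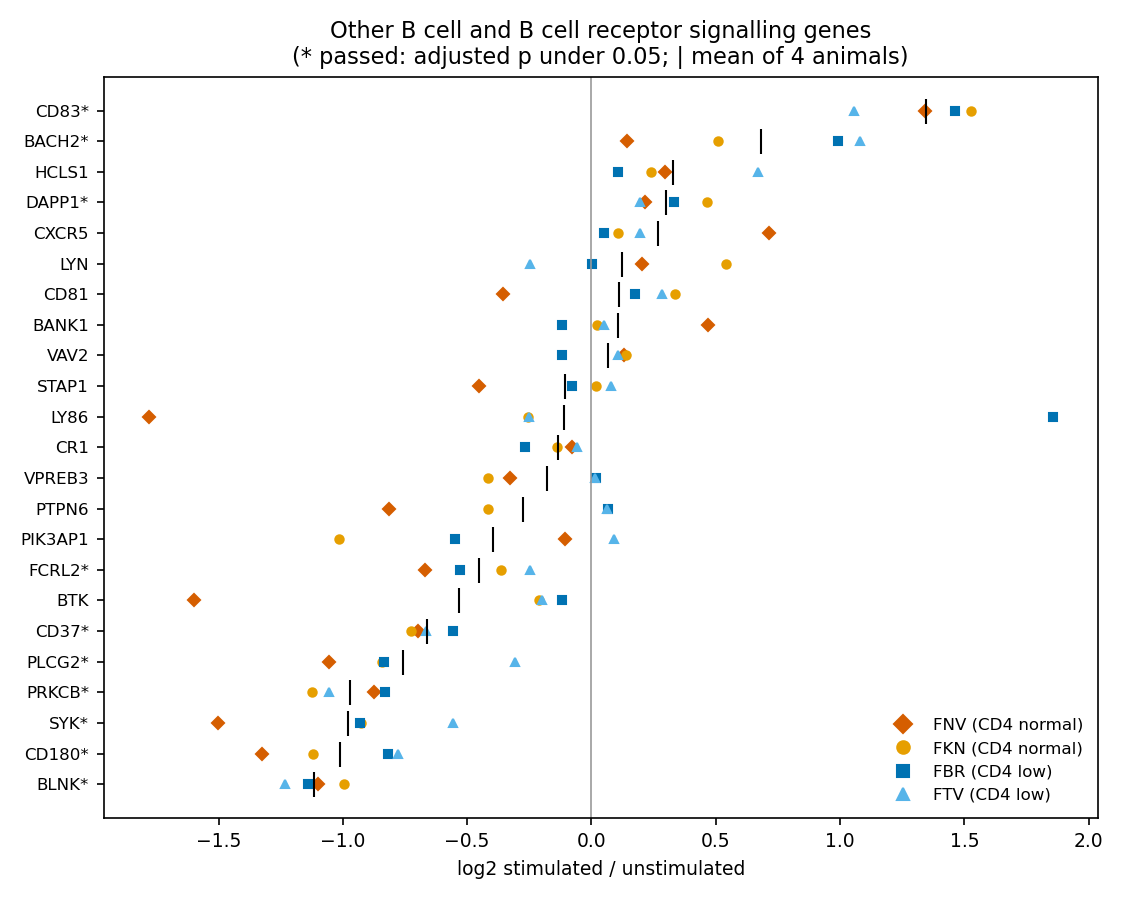
Log2 ratio of stimulated over unstimulated RNA for the 11 and 12 measured genes of the B cell surface and B cell receptor signalling lists, 1 point for each animal, with the mean of 4 animals as a bar; an asterisk marks a limma adjusted p under 0.05. BLNK and CD180 are lowest at -1.12 and -1.01, CD83 highest at 1.35, and BANK1 lies near 0.

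The members' profiles were also compared over the 8 mean levels (4 animals, each before and after stimulation), which share animals and arrays. CD79B probe 1 and CR2 probe 1 had a Pearson r of 0.92, CD79B probe 1 and MS4A1 0.89, and CR2 probe 1 and MS4A1 0.89. FCER2 was unlike the rest, with r of -0.02 to CD79B probe 1, 0.02 to CR2 probe 1 and 0.33 to MS4A1. Of 8449 named genes, the nearest to CD79B probe 1 were LBR, KLRAQ1, KRT18, GABARAPL2 and BLNK (r 0.999 to 0.991), of which BLNK was also on the signalling list. Nearest to CR2 probe 1 were ITGA6, SMARCE1, AKR7A3, CDKN2D and NDUFB10 (r 0.982 to 0.973), and ITGA6, an integrin chain, had ratios of -0.51 in FNV and -1.64, -1.61 and -1.62 in the others, the same arrangement as CR2. For MS4A1 they were CEP95, KIAA0564, YLPM1, RNF122 and SSH3 (r 0.991 to 0.985), and for FCER2 AKAP12, ZNF385A, TUFM, GNG8 and RRP8 (r 0.976 to 0.963).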

How the data were processed

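The authors deposited Agilent Feature Extraction 10.7.3.1 output for 16 arrays. Per the file headers it holds spot and background intensity on a linear scale, the software's log10 ratio of its background-subtracted and dye-normalised red and green signals, and other columns of 0 or 1 flags. The authors' deposited table of log2 ratios per animal was made by a method not given in the sources used here.

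Intensities were corrected with normexp (offset 50) and normalised by loess in limma 3.58.1 (R 4.3.3, statmod 1.5.0, version 1.17.8 of data.table). An offset draws ratios of dim probes toward 0. Control and outlier spots (at most 51 an array) were left out; 0 spots were saturated. The sign of a dye orientation was turned and an animal's 2 ratio arrays, which hold the same RNAs, were averaged, so n = 4. On 1 ratio array of FNV the title and a characteristic disagree on which channel was stimulated, and the title was followed. Levels used Aquantile and the mean of 4 channels. A probe was kept if at least 2 animals had it well above background, in the channels of 1 condition, on each of their ratio arrays. Ratios were tested with lmFit and eBayes, Benjamini-Hochberg adjusted over 27493 probes. On simulated ratios for the stimulation response over 27493 probes, changes of 1 log2 unit were recovered in 75.2% and of 2 in 94% of cases. Arrays of the same animal pair the samples in every ratio. No 2 arrays shared an identical channel.

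Named genes were all members, CD3E, up to 3 passing genes in each direction per other list, and the 5 genes nearest to each member. BANK1, CR1, LY86, CD4, CD3D and CD3G are named outside this rule, after their values were seen; 1 further gene that was listed is not reported here. Members and lists were chosen with earlier results of these data known. A gene in a list was read from its brightest kept probe; gene names are those of the array files, and 8125 spots are named differently by its 2 editions. Alternatives covered centring, ratios of the scanner software, same-RNA arrays, filters, each animal left out, the reference gene and level scale. Figures were drawn with matplotlib 3.10.9 in Python 3.11.15.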

Additional observations from a re-analysis of the deposited data

Results flagged for a closer look

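In 24 groups of 4 animals examined (the ratio, resting level and stimulated level of 7 member probes and CD3E), 5 had a lone value further from the rest than Dixon's critical gap allows; chance gives about 1 in 20. All 5 were in FNV. The response of CR2 probe 1 was -0.77 in FNV and -3.24 to -2.84 in the others. Its stimulated level was 11.25 in FNV and 8.03 to 8.56 in the others, and that of CR2 probe 2 was 8.03 in FNV and 6.63 to 6.80 in the others. The stimulated level of MS4A1 was 9.47 in FNV and 7.03 to 7.39 in the others. The resting level of CD3E was 12.15 in FNV and 13.20 to 13.35 in the others. FNV was also the only animal with the older annotation edition and had the highest list means of monocyte and dendritic cell markers. The part of these differences in the flagged values was not tested.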

How the results depend on the processing

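All 7 tested member probes passed with the scanner software's ratio, no filter, a filter on all 4 animals, trend and robust fitting, without FNV and without the array with a label conflict. A term for the annotation edition gives the same values as leaving out FNV, since FNV alone has the older edition. No member's ratio changed sign under any alternative run. The number of member probes that passed was 4 to 7 with an animal left out, and 4 of 4 with 1 probe per gene name, which tests fewer members. On the same-RNA arrays 7 member probes and 8319 of all probes passed with the animal as a replicate block, against 2 (both CD79B probes) and 2261 unpaired. Over all probes, 11082 passed in the main setting, 4851 with median centring, which left out CR2 probe 3 (limma adjusted p = 0.0647) and FCER2, and 5796 to 14074 with an animal left out. For CD4 status with an animal left out, which leaves 1 animal in a group that is assumed to vary like the others, 0 to 2 probes passed for the resting level and 0 to 4339 for the stimulated level, the latter without FKN; these runs, leaving out animals for the level against CD3E and the list counts without FNV were chosen after seeing the data. The mean resting level of CD79B probe 1 against CD3E, -1.48 ± 1.89, moved by less than its SD in every alternative, but this SD was the widest of the member probes. A change of reference gene shifts the mean of every probe by the same amount, so this comparison depends only on each probe's SD. With CD3D as the reference, every other member probe moved by at least its own SD. With CD3G, every other member probe except CD79B probe 2 and MS4A1 did. FCER2, for example, went from -6.02 to -7.66 with CD3D, and to -8.34 with the scanner software's processed signals. Signal near background limits CR2 probe 3, PAX5 and CD22. FCER2 was dim too, and its mean ratio was 0.36 in the main setting and 0.96 with the scanner software's ratio. The number of arrays limits every probe.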

Other observations

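CR1, the complement receptor gene related to CR2, was measured by 4 probes and was chosen for mention after its values were seen. Its brightest probe read -0.14 ± 0.09 (SD, n = 4; limma adjusted p = 0.127) and did not pass, whereas the other 3 fell by 0.53, 0.42 and 0.50 on the log2 scale (limma adjusted p = 0.0229, 0.0384 and 0.0372). Its resting level was lowest in FNV (7.65) and highest in FBR (10.27), unlike that of CR2. LY86, a partner protein of CD180, went in opposite directions in different animals, with ratios of -1.78 in FNV, -0.26 in FKN, 1.86 in FBR and -0.25 in FTV (limma adjusted p = 0.888).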
